A study of Arabidopsis thaliana with 4 samples.

Results

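Cytochrome P450 genes were examined in 10-day-old Arabidopsis seedlings through 22 probe sets. A probe set was taken when the platform annotation mapped it to a single gene whose RefSeq symbol is a complete P450 name, that is CYP followed by a family number, a subfamily letter and a gene number. CYP83B1 and symbols without the full form were left out. The 22 members are 22 different genes among 13513 single-gene probe sets and 22746 probe sets tested. RefSeq lists 225 Arabidopsis genes with a symbol of this form, so 203 of them have no probe set under this rule. The set is one-sided, since 18 of the 22 belong to subfamily CYP71B and the other 4 are CYP51G2, CYP78A9, CYP79A2 and CYP84A4.

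Cytochromes P450 are heme enzymes, mostly bound to the endoplasmic reticulum, that insert an oxygen atom into their substrate with electrons supplied by NADPH-cytochrome P450 reductase. In plants they form one of the largest enzyme families and take part in the synthesis and breakdown of sterols, hormones, phenylpropanoids, wall and cuticle polymers, and defence compounds such as glucosinolates and camalexin. CYP71B is a large Arabidopsis subfamily, much of it in tandem arrays, and most of its enzymes have no known substrate.

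The mutant Atdi19-3 is a T-DNA insertion line of the drought-induced zinc finger gene AtDi19-3 in the Col-0 ecotype, and the controls were wild type Col-0. Whole seedlings of both genotypes were grown without treatment under 16 h light and 8 h dark. Each genotype was measured on 2 Affymetrix ATH1 arrays that the labels call biological replicates, and 1 insertion line stands for the mutation. AtDi19-3 itself (AT3G05700) has 0 probe sets named in the sources used here, so the labels could not be checked against it. The replicates were harvested as whole seedlings, in which fewer cells of a type and less RNA per cell cannot be told apart.

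The arrays differed in ways that follow the genotype. The 18 hybridization spike-in probe sets, which report bacterial and phage transcripts added in a fixed mixture, were all lower in Atdi19-3, with medians of 5.92 and 6.20 on the mutant arrays and 9.69 and 9.41 on the wild-type arrays. Probe sets above 4 on the log2 scale made up 14.1% and 13.5% of those tested on the Atdi19-3 arrays and 7.10% and 8.34% on the wild-type arrays. Readings near the 5′ end of a transcript fall behind those near the 3′ end when RNA is broken or copied short, and the gap between the ubiquitin probe sets was 1.40 and 0.67 in Atdi19-3 and 3.67 and 4.18 in wild type, and that of GAPDH was 2.39 and 2.54 in Atdi19-3 and 3.96 and 5.15 in wild type. The gap of actin was 4.71 and 4.62 in Atdi19-3 and 4.56 on both wild-type arrays. The part of these differences in the results below was not tested. Of the tissue markers listed, RCA, the Rubisco activase of green tissue, was the 1 of 5 green markers with a named single-gene probe set. It read 8.38 and 8.56 in Atdi19-3 and 4.33 and 5.65 in wild type. Of 6 root markers 2 had such a probe set. The beta-glucosidase PYK10 read 3.42 and 3.56 in Atdi19-3 and 3.21 on both wild-type arrays, and EXPA7 no more than 2.68 on any array.

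Nearly all members gave readings close to the lower end of the scale. The lowest value on every array was 2.49, and a probe set was counted as detected when its mean over the 4 arrays was above 3. By this measure 1 of 22 members was detected (4.55%), against 30.3% of all tested probe sets. No member reached 4 on any array, the highest single reading being 3.73 for CYP71B6. The median member had a mean level of 2.59, against 2.72 for all tested probe sets. The members' medians on the single arrays were 2.53 and 2.55 in Atdi19-3 and 2.57 and 2.62 in wild type, all close to the array minimum. For members whose readings stayed there on every array, the genotypes could not be distinguished at this signal.

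**Figure D1:**
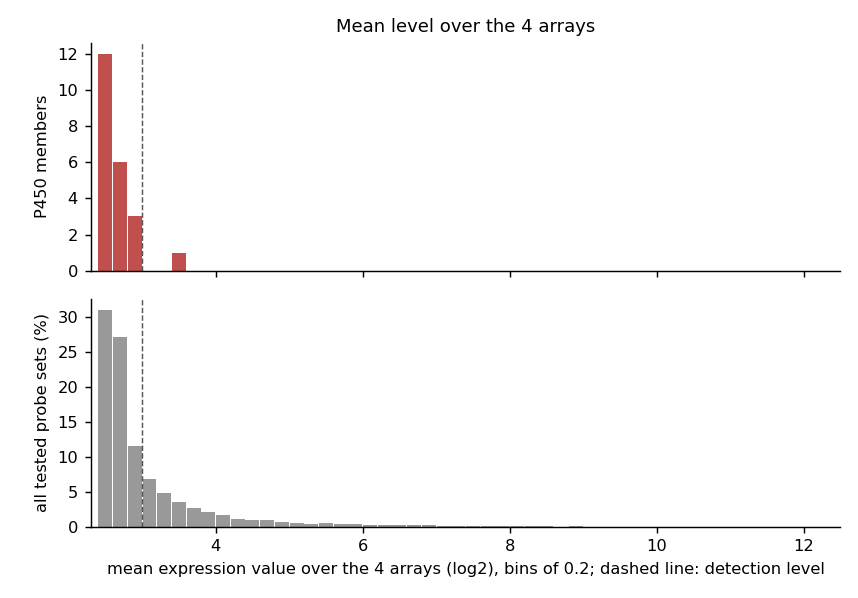
Mean expression value over the 4 arrays on the log2 scale, in bins of 0.2, for the 22 P450 members (upper panel, number of members) and all 22746 tested probe sets (lower panel, percent). The dashed line marks the detection level of 3, and 1 member, CYP71B6, lies to its right.

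Many readings were repeated to the last decimal deposited. For 4 members, CYP71B27, CYP71B29, CYP71B38 and CYP79A2, the same value stood on all 4 arrays, and for 8 more it stood on 3 of them. A lowest value shared by several arrays may mark the floor of its probe set. Such repeats on at least 3 arrays were found in 12 of 22 members (54.5%), in 29.2% of all tested probe sets and in 41.4% of those with a mean of 3 or below. Members stood at their own lowest value nearly as often in both genotypes, 14 on each Atdi19-3 array and 13 and 12 on the wild-type arrays. Only larger steps above that value were clearly more frequent on the wild-type arrays. A step of over 0.2, a size chosen after the values were seen, was read for 1 and 2 members on the Atdi19-3 arrays and for 6 and 5 members on the wild-type arrays. Among dim probe sets, with a mean of 3 or below, 10.5% and 9.17% showed such a step on the Atdi19-3 arrays and 18.7% and 17.1% on the wild-type arrays. Over all tested probe sets the order was the other way, at 30.6% and 28.9% on the Atdi19-3 arrays and 21.2% and 24.3% on the wild-type arrays, and no test was made of these shares.

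**Figure D2:**
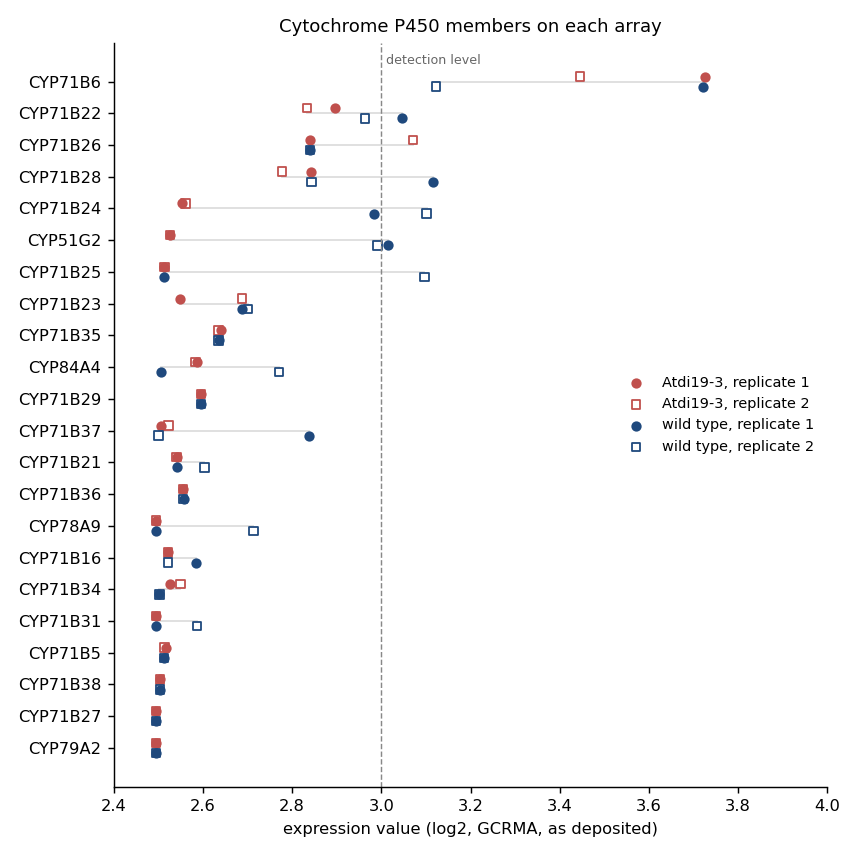
Expression values (log2, GCRMA, as deposited) of the 22 P450 members on each of the 4 arrays, with the Atdi19-3 arrays drawn above the wild-type arrays in each row and members ordered by their mean. CYP71B6 lies above 3 on all 4 arrays, whereas CYP51G2 and CYP71B24 lie near 3 in wild type only.

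CYP71B6 (AT2G24180) was the member with the clearest signal, and its level did not differ detectably between the genotypes. The enzyme converts indole-3-acetonitrile, an intermediate of camalexin and nitrile-derived auxin metabolism, to indole-3-carbaldehyde. It read 3.73 and 3.45 in Atdi19-3 and 3.72 and 3.12 in wild type. The ranges overlapped, the upper array of each genotype being almost equal and the lower wild-type array setting the difference. The mean was 3.59 ± 0.20 in Atdi19-3 and 3.42 ± 0.42 in wild type (SD, n = 2 arrays each), and the log2 difference was 0.16 (standard error 0.30, 95% interval -0.90 to 1.23, limma adjusted p = 0.81). After quantile normalization the difference was -0.33, and without the second wild-type array it was -0.14, so its sign is not settled. Its mean exceeded that of 83.4% of all tested probe sets.

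CYP51G2 (AT2G17330) was the 1 member called, and it was lower in Atdi19-3, except when the arrays were centred on the spike-ins, which gave a difference of 3.01. CYP51 enzymes are sterol 14-demethylases, while RefSeq classes CYP51G2 as a transcribed pseudogene, the functional Arabidopsis gene being CYP51G1. The transcript read 2.53 on both Atdi19-3 arrays, to the last decimal, and 3.02 and 2.99 on the wild-type arrays. The genotypes did not overlap, and the log2 difference was -0.48 (standard error 0.01, limma adjusted p = 0.022), a 1.39-fold decrease. The identical mutant values can be the floor of the probe set, and the size of the decrease may then be understated. Both wild-type readings are themselves near the detection level. The SD was 0 in Atdi19-3 and 0.02 in wild type, so the small standard error and the call rest on tied or nearly tied readings. Over all tested probe sets 3.76% were called in either direction and 0.602% lower, and 1 called member of 22 is too few to set apart from these shares. Without either Atdi19-3 array the adjusted p was 0.12, in limma fits that called 0 probe sets of the whole array (3768 and 3933 at an unadjusted p under 0.05), and with the replicate number as a block it was 0.14. Without the first wild-type array 7 members were called lower in Atdi19-3 and without the second 3, where 11.6% and 12.2% of all tested probe sets were called lower. In those fits the Atdi19-3 arrays, often at one shared value, supply all of the spread, so that 1 raised wild-type reading was enough for a call, and they are no support for the call of CYP51G2.

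CYP71B24 (AT3G26230) had a difference of the same size and was not called. No substrate is listed for its enzyme. The readings were 2.55 and 2.56 in Atdi19-3 and 2.98 and 3.10 in wild type. Both mutant arrays lay below both wild-type arrays, close to the minimum of the arrays, and the log2 difference was -0.48 (standard error 0.05, 95% interval -0.68 to -0.29, limma adjusted p = 0.086). The limma adjusted p was 0.35 or 0.33 with an Atdi19-3 array left out, 0.23 with the replicate block and 0.10 after quantile normalization. It was 0.016 or 0.018 with a wild-type array left out, where the spread comes from the near-equal Atdi19-3 readings alone and the lone wild-type array is assumed to vary like them. With the arrays centred on the spike-ins the difference was 3.004. CYP51G2 and CYP71B24 were the 2 members with an unadjusted p under 0.05.

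**Figure D3:**
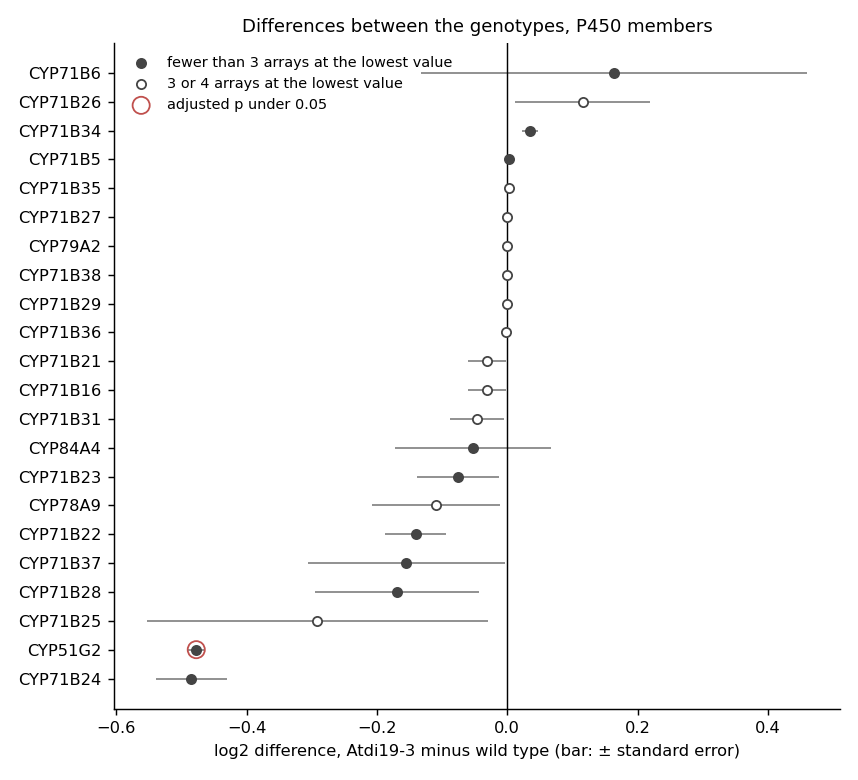
Log2 difference, Atdi19-3 minus wild type, for each P450 member with its standard error from limma. Open symbols mark the 12 members with 3 or 4 arrays at their lowest value. CYP51G2, circled, is the 1 member with an adjusted p under 0.05, and only CYP51G2, CYP71B24 and CYP71B25 lie more than 0.2 from 0.

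Over the whole set, 5 members had differences above 0, 13 below 0 and 4 of exactly 0. Their median log2 difference was -0.03, against 0 over all tested probe sets and 0.44 over the detected ones. Of all tested probe sets 47.5% were above 0 and 40.0% below, while of the dim ones with a mean of 3 or below 33.4% were above 0 and 48.9% below. The differences ran from -0.48 to 0.16, and 19 of 22 were under 0.2 in size. No member was past the study's thresholds, a log2 difference over 1 in size with an unadjusted p of 0.05 or less, which 6.70% of all tested probe sets passed. Of the 15852 probe sets with a mean of 3 or below, 0 passed them. All members except CYP71B6 lie in that dim group, so their count of 0 is not read as a result about P450 genes. The arrays of the genotypes did not overlap for 5 members. Of these, 3 were lower in Atdi19-3 (CYP51G2, CYP71B22 and CYP71B24), where 10.4% of all tested probe sets separated in this direction, and 2 were higher (CYP71B5 and CYP71B34), where 28.5% did. Among probe sets with a mean of 3 or below, 11.4% separated lower and 12.9% higher. The members' counts are near these dim shares and are not read as a result about them. Quantile normalization left 8 members above 0 and 12 below, and spike-in centring, which moves all probe sets by 3.49, put all 22 above 0.

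Most CYP71B members have another P450 gene next to them. In the RefSeq gene order, with non-coding RNA genes left out, 16 of 22 members lie in 5 runs of neighbouring P450 genes. The run that leads from CYP71B16 to CYP71B24 holds 10 P450 genes, of which 5 are members, and all 5 had differences below 0. CYP71B22 (AT3G26200) read 2.90 and 2.83 in Atdi19-3 and 3.05 and 2.96 in wild type, a difference of -0.14 (standard error 0.05, limma adjusted p = 0.35). The groups did not overlap, and the higher mutant array lay just under the lower wild-type array. CYP71B23 (AT3G26210) read 2.55 and 2.69 in Atdi19-3 and 2.69 and 2.70 in wild type, and 1 mutant array alone was lower. CYP71B16 and CYP71B21 each left their lowest value on 1 wild-type array, to 2.58 and 2.60, and each differed by -0.03. The difference of CYP71B16 was 0 without the first wild-type array, and that of CYP71B21 was 0 without the second. After quantile normalization CYP71B21 stood at 0.002, so the shared sign was not kept in every setting. Apart from CYP71B24, the shared sign in this run therefore rests on small steps, and related copies lying side by side are not independent measurements.

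**Figure D4:**
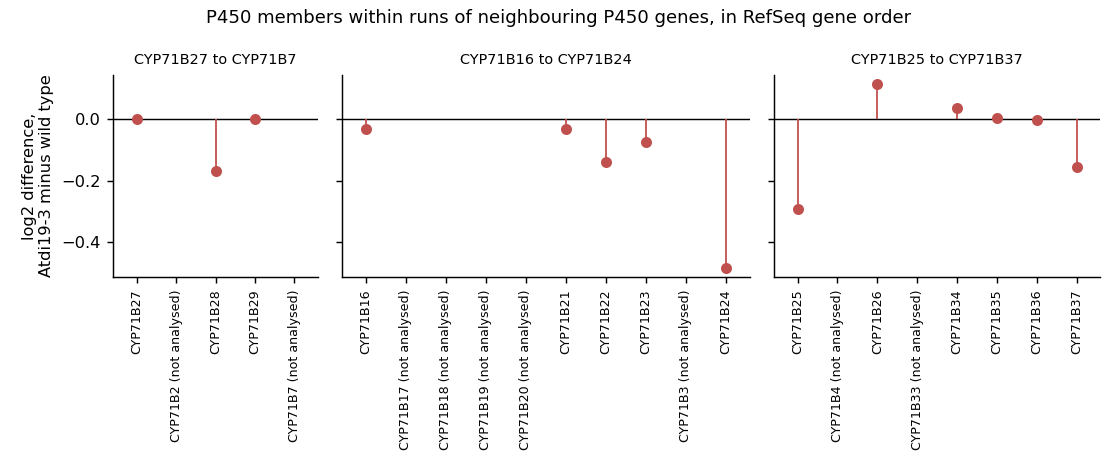
Log2 difference, Atdi19-3 minus wild type, of P450 members in the 3 longest runs of neighbouring P450 genes, in RefSeq gene order. The 5 members of the middle run are all below 0, from -0.03 to -0.48, while the run on the right has 3 members above and 3 below 0.

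The next run, from CYP71B25 to CYP71B37, holds 8 P450 genes with 6 members and showed no common direction, with 3 above and 3 below 0. CYP71B25 (AT3G26270) read 2.51 on both Atdi19-3 arrays and 2.51 and 3.10 in wild type, so its difference of -0.29 (standard error 0.26, limma adjusted p = 0.58) came from the second wild-type array alone. CYP71B26 (AT3G26290) showed the reverse, with 2.84 and 3.07 in Atdi19-3 and 2.84 on both wild-type arrays, a difference of 0.12 (standard error 0.10, limma adjusted p = 0.58). In both genes a single array stood above 3 of equal value. CYP71B37 (AT3G26330) was raised on the first wild-type array alone, reading 2.51 and 2.52 in Atdi19-3 and 2.84 and 2.50 in wild type. CYP71B34 (AT3G26300) was slightly higher in Atdi19-3, at 2.53 and 2.55 against 2.50 on both wild-type arrays, and its difference of 0.04 was not called. CYP71B35 and CYP71B36 stayed within 0.01 of their lowest value on every array.

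The remaining long run, from CYP71B27 to CYP71B7, holds 5 P450 genes and 3 members. CYP71B27 (AT1G13070), which RefSeq classes as a transcribed pseudogene like CYP51G2, stood at 2.49 and CYP71B29 (AT1G13100) at 2.60 on every array. Between them, CYP71B28 (AT1G13090) read 2.84 and 2.78 in Atdi19-3 and 3.12 and 2.84 in wild type, a difference of -0.17 (standard error 0.13, limma adjusted p = 0.58). The higher mutant array equalled the lower wild-type array. Of the other CYP71B members, CYP71B38 (AT3G44250) stood at 2.50 on every array. CYP71B5 (AT3G53280) read 2.52 and 2.51 in Atdi19-3 and 2.51 on both wild-type arrays, and its separation amounts to a difference of 0.003.

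The members with an enzyme role in the lists used here, apart from CYP71B6, were not detected. CYP79A2 (AT5G05260), which converts phenylalanine to its aldoxime at the start of benzyl glucosinolate synthesis, stood at the array minimum of 2.49 on all 4 arrays. CYP78A9 (AT3G61880), which promotes organ and seed growth, stood at 2.49 on both Atdi19-3 arrays and read 2.49 and 2.71 in wild type. CYP84A4 (AT5G04330), of arabidopyrone synthesis, read 2.59 and 2.58 in Atdi19-3 and 2.51 and 2.77 in wild type, so that both mutant arrays fell between the wild-type arrays. CYP71B31 (AT3G53300), which oxidizes linalool in flowers, read 2.49 on both Atdi19-3 arrays and 2.49 and 2.59 in wild type. The limma adjusted p for CYP78A9, CYP84A4 and CYP71B31 was 0.58, 0.88 and 0.58. A p that misses the threshold at this signal does not show that these transcripts were equal in both genotypes.

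By clan, the deep branches into which plant P450 families are sorted, 21 members belong to the 71 clan and CYP51G2 to a family clan of its own. The 71 clan members had a median log2 difference of -0.03 and 0 calls by limma, with CYP71B24 the 1 gene at an unadjusted p under 0.05. The 18 CYP71B members had 5 differences above 0, 10 below and 3 of exactly 0, and the 4 members of other subfamilies had 3 below and 1 of exactly 0. The partner genes listed were 8 reductases and cytochrome b5 genes and 19 P450 genes of hormone, phenylpropanoid, carotenoid and defence pathways. None has a single-gene probe set in the platform annotation given here, and they were not analysed. Probe sets shared by several genes were not searched for them.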

How the data were processed

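For 22810 probe sets on 4 Affymetrix ATH1 arrays, the authors deposited log2 values after GCRMA background correction and normalization. R 3.4.0 is credited to the submitters' processing notes, the GCRMA version is not stated, and the deposited table holds no probe intensities, so the background correction could not be repeated. The number of arrays limits the precision.

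From these values, 64 control probe sets were set aside and 22746 were fitted with lmFit and eBayes of limma 3.58.1 in R 4.3.3, Atdi19-3 against wild type, without covariates or a filter. A probe set was called at a Benjamini-Hochberg adjusted p under 0.05 over all of them. No permutation test was run, because the smallest exact p that 2 arrays a side allow is 0.33. Genes were named by the platform annotation and RefSeq TAIR10.1, and no coordinates are given because the arrays carry no build. The fit was tested on simulated data.

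The members and lists were chosen with earlier results of these data known. The rule for named genes took called members, the detected members with the largest differences, the 6 brightest and 1 detected member per role. The other members are named to account for the whole set. Quantile normalization, spike-in centring, an intensity trend, a filter at a mean of 3, the replicate block and leaving out each array were tried.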

Additional observations from a re-analysis of the deposited data

How the results depend on the processing

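Quantile normalization changed the calls over all probe sets to 428 (270 higher and 158 lower), against 855 (718 higher and 137 lower). It put the 1 detected member, CYP71B6, at -0.33 and left 10 members without overlap. No share over all tested probe sets is given for that count, so it is not read as a result about the members. Centring on the spike-ins moves all probe sets alike by 3.49, so that 22742 probe sets and all 22 members were called, past the 2-fold threshold and without overlap. The detected member then stood at 3.65, the median member at 3.46, and CYP51G2, CYP71B22, CYP71B24 and CYP71B28 at 3.01, 3.35, 3.004 and 3.32. Fitting only probe sets with a mean above 3 called 2563 and kept 1 member, with 0 called, 0 without overlap and a median of 0.16. Same-numbered arrays did not deviate together (r = 0.02 across probe sets), and with the replicate block limma called 0 probe sets and 0 members (3638 and 3 at an unadjusted p under 0.05). Leaving out 1 array gave 0 to 3654 called probe sets, 0 to 7 called members and 7 to 13 members without overlap. The 0 came without either Atdi19-3 array (3768 and 3933 probe sets at an unadjusted p under 0.05). Without the first wild-type array 7 members were called and without the second 3, all lower, in fits whose spread came from the Atdi19-3 arrays alone. The detected member ranged over -0.14 to 0.46 in these fits, falling below 0 without the second wild-type array, and the median of all members over -0.03 to 0. That median was added after seeing the data. The intensity trend kept CYP51G2 called (adjusted p = 0.050). With 1 array left in a genotype, arrays without overlap are easier to reach, and no share over all tested probe sets is given. The counts of members without overlap in those fits are therefore not read as a result about the members. The cause of these changes was not tested. No member had a mean above 4, so that definition of detection gave no value. No member's probe set has a suffix for shared transcripts.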

Other observations

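A few P450 genes outside the rule were measured, all but CYP96A15 (mean 2.99) above the detection level of 3. They are named only by a gene list in the study's supplement, drawn from these same arrays and read here in part. These genes have higher mutant readings there, so their direction is no independent evidence. The choice to show them came after the values were seen. CYP51G1 (AT1G11680), the sterol 14-demethylase, read 4.65 and 4.51 in Atdi19-3 and 3.22 and 3.66 in wild type, a log2 difference of 1.14 (standard error 0.21, limma adjusted p = 0.16). CYP94B3 (AT3G48520) and CYP94C1 (AT2G27690), which oxidize the hormone jasmonoyl-isoleucine, had differences of 1.22 (adjusted p = 0.15 from limma) and 0.65 (adjusted p = 0.54 from limma). CYP94B3 read 4.05 and 4.38 in Atdi19-3 and 2.82 and 3.17 in wild type, and CYP94C1 read 4.18 and 3.55 in Atdi19-3 and 3.37 and 3.06 in wild type. CYP96A15 (AT1G57750), the midchain alkane hydroxylase of cuticular wax, read 3.10 and 3.58 in Atdi19-3 and 2.63 on both wild-type arrays. The wild-type value can be the floor of its probe set, and the difference may then be understated. As read, the log2 difference was 0.71 (95% interval -0.07 to 1.48, limma adjusted p = 0.30), an interval that covers both directions. None of the 4 was called by limma, while CYP51G1 and CYP94B3 were past the study's thresholds for size and unadjusted p. CYP94C1 and CYP96A15 were not past these thresholds in the fit used here. Of all tested probe sets 6.70% passed these thresholds, and all 1524 of them were among the 6894 detected ones. Of the detected probe sets 64.4% had both Atdi19-3 arrays above both wild-type arrays, so higher mutant readings are not particular to these genes. CYP51G1 thus read higher in Atdi19-3, while its pseudogene relative CYP51G2 read lower, and a test of the difference between these genes was not made.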
